A study of Mus musculus with 10 samples.

Results

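The 10 genes described here are Trp53, which encodes the transcription factor p53, and 9 genes commonly listed as its direct targets, namely Cdkn1a, Mdm2, Ccng1, Trp53inp1, Bax, Bbc3, Phlda3, Perp and Zmat3. They were chosen by name, with earlier results of these data known, and all 10 were found by Ensembl identifier among the 30677 genes of the count table and passed the filter on low counts, which left 20027 genes. The libraries come from TNGA cells, a mouse embryonic stem (ES) cell line with a green fluorescent protein reporter at 1 allele of Nanog, grown in serum with leukaemia inhibitory factor. In triplicate, cells were treated for 48 hours with MB-3, an inhibitor of the histone acetyltransferase Kat2a, at 100 µM, or with the vehicle dimethyl sulfoxide (DMSO), and every culture held 0.1% DMSO by volume. Polyadenylated RNA was sequenced from 3 DMSO and 3 MB-3 cultures, and the labels letter the cultures of each group A to C. Both groups are of 1 cell line at 1 dose and 1 time, and cultures without vehicle were not analysed here. Total counts of the DMSO libraries A to C were 48144367, 51137896 and 46863700, and those of the MB-3 libraries A to C were 49334434, 44985772 and 42270312.

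p53 is held at a low level of activity in unstressed cells by Mdm2, a ubiquitin ligase that marks it for degradation and whose own gene p53 activates. DNA damage, oncogene activity or ribosomal stress frees p53, which then binds its response elements and switches on genes of cell cycle arrest, apoptosis, repair and metabolism, so that its targets are a usual readout of stress from a drug. ES cells are known to make much p53 and little of the cell cycle inhibitor p21, the product of Cdkn1a.

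In these cultures none of the 9 targets was higher in MB-3 than in DMSO beyond the spread between libraries. Trp53 itself and Mdm2 differed little between the treatments, as did Bax, Trp53inp1 and Zmat3. Cdkn1a, Perp and Phlda3 had lower levels in MB-3, with fitted changes of -31.5%, -33.0% and -22.4%. They were called lower when libraries of the same letter were compared with each other (the replicate block), and were not called when treatment was the only term and all 6 libraries were tested after the filter on low counts.

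Sequences that match the p53 response element lie near some of these genes and not near others, and are shown for those that have one. A p53 site consists of a pair of half-sites of 10 bases, known as the p53 half-site consensus, each with a core of C, A or T, A or T, and G. Within 3000 bases on either side of the annotated 5′ end of a gene (GENCODE M21, GRCm38), a search on both strands for 2 abutting half-sites, with all core C and G bases kept and at most 2 mismatches, found 6 sites at 5 of the 10 genes. Such a site was found at 1111 of 17835 protein-coding genes of the count table (6.23%). The sites are shown 5′ to 3′ on the strand of the gene, from the GRCm38.p6 genome of RefSeq, with the central 4 bases of each half-site in capitals, since this core is the most conserved stretch of the consensus.
Cdkn1a: gaaCATGtcttgaCATGttc
Zmat3: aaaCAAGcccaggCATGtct
Ccng1, upstream: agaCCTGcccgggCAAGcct
Ccng1, downstream: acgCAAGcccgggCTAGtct
Bax: gggCAGGcccgggCTTGtcg
Perp: attCTAGcccaggCTTGccc

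The Cdkn1a site lies at chr17:29090928-29090947 on the plus strand with 1 mismatch. It starts at -48 from the 5′ end of the gene in GENCODE, and at -51 and -2841 from the 2 starts of transcription that RefSeq gives, so that it sits upstream of either start. The Zmat3 site at chr3:32364331-32364350 on the minus strand, at 1664 from the 5′ end, had no mismatch, which was the case for a site at 21 of the 17835 genes. The 2 Ccng1 sites, at chr11:40755462-40755481 and chr11:40754936-40754955 on the minus strand, had 1 mismatch each and lie at -170 and 356 from the 5′ end. The Bax site at chr7:45466574-45466593 on the minus strand, at 305 from the 5′ end, and the Perp site at chr10:18843034-18843053 on the plus strand, at -1986 from it, had 2 mismatches each. No such match was found at Trp53, Mdm2, Trp53inp1, Bbc3 and Phlda3, which says only that these letters are not in this window. In the RefSeq promoter windows, which run from 250 bases before to 50 bases after a start, at least 1 half-site without mismatch was present in 5 of the 10 windows of the genes that had one, against 8.36% of 32851 windows of all genes. Those 5 windows belong to Trp53, Cdkn1a, Mdm2, Ccng1 and Bax. A match of letters is a description and not a measured binding site, and genes with a match are found among those that were lower in MB-3 and among those that were not.

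Compared per length, in CPM (the count relative to the scaled library size) per kilobase of merged exons, the levels in DMSO spanned more than 10-fold. Trp53 was highest, at 78.9 ± 6.92 CPM per kilobase (SD, n = 3), a level above that of 94.8% of the genes tested. Bax at 73.1 ± 9.20 and Ccng1 at 72.0 ± 6.96 CPM per kilobase did not differ from it, or from each other, beyond their spread. Trp53inp1 followed at 32.4 ± 1.67, then Phlda3 at 21.3 ± 3.79, Mdm2 at 17.9 ± 1.69 and Bbc3 at 16.7 ± 1.32 CPM per kilobase, of which the last 3 overlapped within their spread. Perp at 11.3 ± 3.73 and Cdkn1a at 10.0 ± 2.06 CPM per kilobase overlapped too, and Zmat3 was lowest at 6.69 ± 0.412 CPM per kilobase. The length counts the exons of all annotated transcripts, 11435 bases for Zmat3 and 1576 for Bax, so a gene with a long exon that is little used here appears lower than it is.

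Trp53 (ENSMUSG00000059552, GRCm38 chromosome 11 from 69580359 to 69591873) was at 299, 351 and 308 CPM in the DMSO libraries (here and throughout in the order A, B, C) and at 313, 327 and 341 CPM in the MB-3 libraries. The groups overlapped, with DMSO replicate B the highest library of all. The log2 fold change of MB-3 against DMSO was 0.03 (standard error, SE, 0.07, 95% interval -0.11 to 0.18, adjusted p = 0.895, quasi-likelihood test of edgeR, Benjamini-Hochberg adjusted over all genes tested). p53 is regulated mostly at the level of its protein, which RNA libraries do not measure.

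Mdm2 (ENSMUSG00000020184, chromosome 10 from 117688875 to 117710758), the ligase and feedback target, was at 90.5, 82.7 and 99.8 CPM in DMSO and at 90.7, 82.7 and 87.8 CPM in MB-3. Replicates A and B had nearly the same level under both treatments, and replicate C was lower in MB-3. Its log2 fold change was -0.06 (SE 0.07, 95% interval -0.22 to 0.09, adjusted p = 0.785, Benjamini-Hochberg in edgeR), and with the replicate block -0.06 (95% interval -0.16 to 0.04).

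Cdkn1a (ENSMUSG00000023067, chromosome 17 from 29090976 to 29100727) encodes p21, the inhibitor of cyclin-dependent kinases through which p53 arrests the cell cycle. It was at 32.4, 30.6 and 44.1 CPM in DMSO and at 23.4, 21.5 and 28.5 CPM in MB-3. All 3 MB-3 libraries lay below all 3 DMSO libraries, and within each treatment replicate C was the highest and replicate B the lowest. The means were 35.7 ± 7.30 and 24.5 ± 3.60 CPM (SD, n = 3), which is a log2 fold change of -0.55 (SE 0.13, 95% interval -0.82 to -0.27). With treatment as the only term the adjusted p was 0.129, and with the replicate block, where the log2 fold change was -0.54 (SE 0.06), it was 5.8e-08 (Benjamini-Hochberg in edgeR in both). The difference between MB-3 and DMSO was -0.47, -0.50 and -0.63 on the log2 scale at letters A, B and C. Exons of Cdkn1a share 273 of 3553 bases with a gene on the opposite strand, and whether counting used the strand is not given in the sources used here.

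Ccng1 (ENSMUSG00000020326, chromosome 11 from 40748552 to 40755311), which encodes cyclin G1, a partner of a phosphatase that acts on Mdm2, was at 250.2, 229.6 and 278 CPM in DMSO and at 229.9, 225 and 236 CPM in MB-3. Each MB-3 library was below the DMSO library of its letter, by 0.12, 0.03 and 0.24 on the log2 scale at letters A, B and C, but the groups overlapped. The log2 fold change of -0.13 had adjusted p-values of 0.503 with treatment only and 0.0748 with the replicate block (Benjamini-Hochberg in edgeR). Without 1 library, the treatment-only fold change ran from -0.20 (DMSO replicate B left out) to -0.058 (DMSO replicate C left out).

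**Figure D1:**
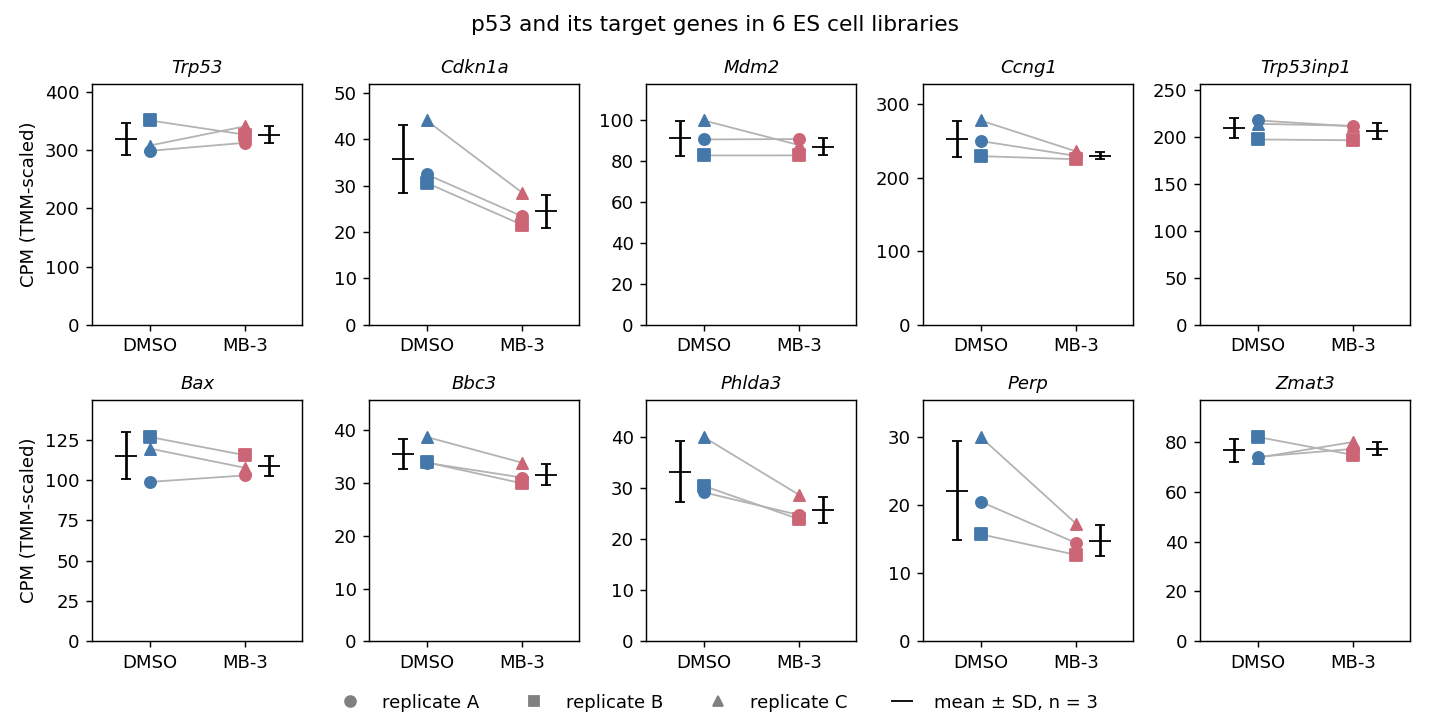
Level of Trp53 and its 9 targets in CPM on a linear axis from 0, for 3 DMSO (blue) and 3 MB-3 (red) libraries; grey lines join libraries of the same letter, and black bars are the mean ± SD (n = 3). In Cdkn1a and Phlda3 all MB-3 libraries lie below all DMSO libraries, and in the other 8 genes the groups overlap; in Perp, Ccng1, Trp53inp1 and Bbc3 each MB-3 library still lies below the DMSO library of its letter.

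Among the genes of apoptosis, Bax and Bbc3 act at the mitochondrion. Bax (ENSMUSG00000003873, chromosome 7 from 45461697 to 45466898), which forms pores in the outer mitochondrial membrane, was at 99.0, 127 and 119.7 CPM in DMSO and at 103, 115.5 and 107.7 CPM in MB-3. The DMSO libraries enclosed the MB-3 libraries on both sides. Its log2 fold change was -0.08 (SE 0.08, 95% interval -0.26 to 0.09, adjusted p = 0.756, Benjamini-Hochberg in edgeR). Leaving out 1 library moved it to -0.18 without DMSO replicate A and to -0.0079 without DMSO replicate B, and it was called in neither case. Exons of Bax share 192 of 1576 bases with a gene on the same strand, so some of its reads may belong to that gene.

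Bbc3 (ENSMUSG00000002083, chromosome 7 from 16308393 to 16318205) encodes PUMA, a protein that binds and disarms the survival members of the Bcl2 family. It was at 33.8, 33.9 and 38.7 CPM in DMSO and at 31.0, 29.9 and 33.9 CPM in MB-3, lower in MB-3 at each letter, though MB-3 replicate C was level with DMSO replicate A, so that the groups overlapped. The log2 fold change was -0.17 (SE 0.07), with adjusted p-values of 0.437 with treatment only and 0.0569 with the replicate block (Benjamini-Hochberg in edgeR), so it missed the threshold of 0.05 in both. Without DMSO replicate C the treatment-only value was -0.10.

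Perp (ENSMUSG00000019851, chromosome 10 from 18845020 to 18857073) encodes a membrane protein that takes part in p53-dependent death and is also a component of desmosomes, the junctions of epithelial cells. It was at 20.5, 15.7 and 30.04 CPM in DMSO and at 14.4, 12.7 and 17.3 CPM in MB-3. MB-3 replicate C lay above DMSO replicate B, so the groups overlapped, and again replicate C was the highest and replicate B the lowest within both treatments. The means were 22.1 ± 7.28 and 14.8 ± 2.31 CPM (SD, n = 3), which is a log2 fold change of -0.58 (SE 0.18, 95% interval -0.97 to -0.19, adjusted p = 0.258, Benjamini-Hochberg in edgeR). With the replicate block the log2 fold change was -0.55 (SE 0.07) and the adjusted p 5.0e-06 in the same test, and the differences at letters A, B and C were -0.50, -0.31 and -0.79 on the log2 scale.

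Phlda3 (ENSMUSG00000041801, chromosome 1 from 135766119 to 135769136) encodes a small protein that competes with the kinase Akt for membrane lipids and so weakens survival signals. It was at 29.1, 30.4 and 39.9 CPM in DMSO and at 24.7, 23.9 and 28.6 CPM in MB-3. All MB-3 libraries lay below all DMSO libraries, with replicate C highest in both groups. The means were 33.1 ± 5.91 and 25.7 ± 2.54 CPM (SD, n = 3), which is a log2 fold change of -0.37 (SE 0.11, 95% interval -0.60 to -0.13, adjusted p = 0.233, Benjamini-Hochberg in edgeR), and with the replicate block -0.36 (SE 0.06, adjusted p = 8.3e-05).

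Trp53inp1 (ENSMUSG00000028211, chromosome 4 from 11156431 to 11174379), a nuclear and autophagy protein induced by stress, was at 218, 197 and 214 CPM in DMSO and at 211, 196 and 212 CPM in MB-3. Its 95% interval of the log2 fold change ran from -0.15 to 0.11. Zmat3 (ENSMUSG00000027663, chromosome 3 from 32334792 to 32366014), a zinc finger protein that binds RNA, was at 74.0, 82.0 and 73.6 CPM in DMSO and at 77.2, 74.7 and 79.9 CPM in MB-3, with an interval from -0.12 to 0.15. In both genes the groups overlapped, and a change of more than about 0.15 on the log2 scale in either direction lies outside these intervals.

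Counted together, 0 of the 10 genes were called with treatment as the only term (Benjamini-Hochberg in edgeR), where 0.205% of all genes tested were called, and 4 (Cdkn1a, Phlda3, Perp and Bbc3, all lower in MB-3) had an unadjusted p under 0.05, against 10.9% of all genes. DESeq2 without shrinkage, run without the filter on low counts, and limma-voom called 0 of them as well. With the replicate block, 3 of 10 were called, all lower, where 7.12% of all genes were called, 3.22% higher and 3.9% lower, and 5 had an unadjusted p under 0.05, against 20.1% of all genes. The groups did not overlap in 2 of 10 genes, both lower, where they did not overlap in 15.6% of all genes, of which 8.22% were higher and 7.37% lower as shares of all genes. MB-3 was below DMSO at all 3 letters in 6 of 10 genes (Cdkn1a, Ccng1, Trp53inp1, Bbc3, Phlda3 and Perp) and above it at all 3 in 0, against 20.3% and 20.2% of all genes tested, or 40.6% in either direction. The median log2 fold change of the 10 genes was -0.11, with 2 positive and 8 negative in both fits, beside a median of -0.0011 over all genes tested, of which 49.7% were positive with treatment only and 49.8% with the block.

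**Figure D2:**
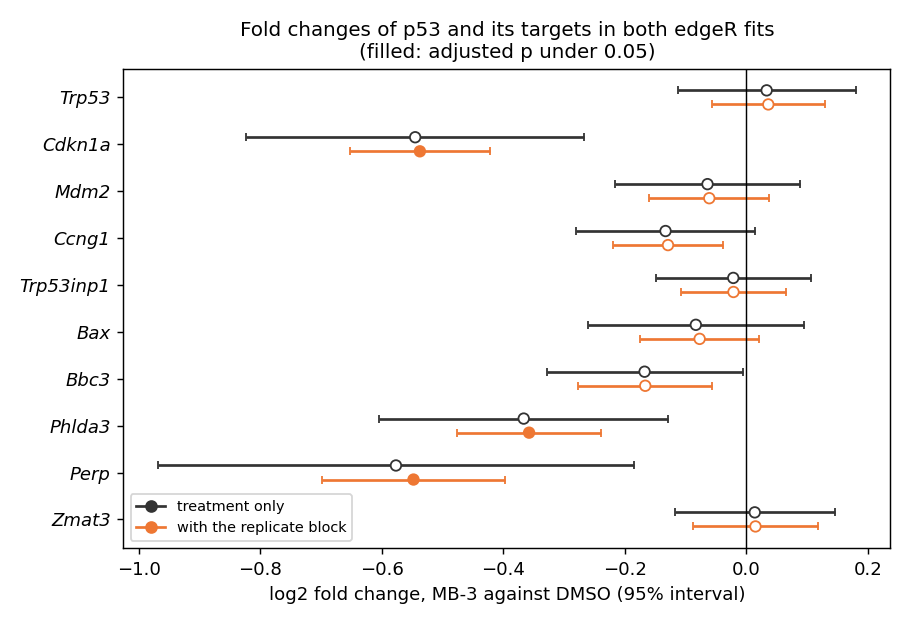
Log2 fold change of MB-3 against DMSO with its 95% interval for Trp53 and its 9 targets, from edgeR with treatment as the only term (black) and with the replicate block (orange); filled points have an adjusted p under 0.05. Only Cdkn1a, Phlda3 and Perp are filled, in the blocked test alone, and for each gene both tests give nearly the same fold change.

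Whether Cdkn1a, Perp and Phlda3 were called differed between the tests. With treatment as the only term and no filter on low counts, Cdkn1a was called as well (adjusted p = 0.012, Benjamini-Hochberg in edgeR), and Perp and Phlda3 were not. In DMSO the SD of log2(CPM + 0.1) over the 3 libraries was 0.47 for Perp, 0.28 for Cdkn1a and 0.25 for Phlda3, which was above that of 98.6%, 97.8% and 96.8% of the 500 genes nearest to each in mean level. In MB-3 it was 0.22, 0.21 and 0.14, above 97.6%, 98.4% and 89.6% of such genes. Genes that were not called also varied in DMSO, where Bax was above 96.2%, Mdm2 above 89.4%, Ccng1 above 89.2% and Trp53 above 83.8% of such genes, while Bbc3, Zmat3 and Trp53inp1 were above 68.8%, 64.8% and 51.0%. Without DMSO replicate B, in which Cdkn1a and Perp were lowest among the DMSO libraries, all 3 were called with treatment as the only term, with log2 fold changes of -0.65, -0.77 and -0.43 for Cdkn1a, Perp and Phlda3 and adjusted p-values of 0.0069, 0.0056 and 0.049 (Benjamini-Hochberg in edgeR). Without DMSO replicate C, the highest library, the log2 fold changes were -0.37, -0.29 and -0.21, and none of the 3 was called.

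Markers of differentiated cells moved with these genes. TNGA cultures showed their ES cell identity in every library, where the 10 ES cell markers had at least 652 counts each, the most abundant of them, Dppa5a, stood at 1450 ± 141 and 1323 ± 80.4 CPM under DMSO and MB-3, and 0 were at 0. Of these 10, Tbx3 was lower in MB-3 with a log2 fold change of -0.40 in both tests (adjusted p = 0.024 with treatment only and 1.1e-06 with the block, Benjamini-Hochberg in edgeR), and Utf1 was called higher with the block alone, at 0.28. Of 15 markers of epithelial, fibroblast-like, endodermal and mesendodermal cells, 14 passed the filter, and 11 of them were lower in MB-3 in the edgeR test with the replicate block, 1 (Vim) also with treatment only, where 3.9% and 0.105% of all genes were called lower. The list was chosen with earlier results of these data known, so here and below its shares describe it and are no test. The 11 are the keratins Krt8, Krt18 and Krt19, the filament and contractile genes Vim, Tagln and Acta2, the collagens Col1a1 and Col1a2, S100a6, and the mesendoderm factors T and Mixl1. Thy1 and the endoderm factors Gata4 and Gata6 were tested and not called in either test. The endoderm factor Sox17, with 1 to 6 counts per library, was not tested, and 0 of the 15 were at 0 in any library. Their summed level was 411, 287 and 664 CPM in DMSO, and 208, 174 and 296 CPM in MB-3. Vim, an intermediate filament gene and the most abundant of them, averaged 129 ± 20.6 CPM under DMSO and 74.1 ± 2.59 CPM under MB-3 (SD, n = 3). Replicate C was the highest and replicate B the lowest within both treatments in 3 of the 10 p53 genes (Cdkn1a, Ccng1 and Perp) and in 9 of the 14 markers, against 6.06% of all genes tested. In bulk libraries, fewer cells of a type and less RNA per cell cannot be told apart. The part of differentiated cells in the lower levels of Cdkn1a, Perp and Phlda3 was not tested. With both libraries of letter C left out, the block gave log2 fold changes of -0.49, -0.41 and -0.29 for Cdkn1a, Perp and Phlda3, and each was called (adjusted p = 5.8e-09, 0.00019 and 0.0028, Benjamini-Hochberg in edgeR). Only letters A and B remain in that fit, so these p-values rest on spread shared across genes more than on the spread of the 3 genes.

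**Figure D3:**
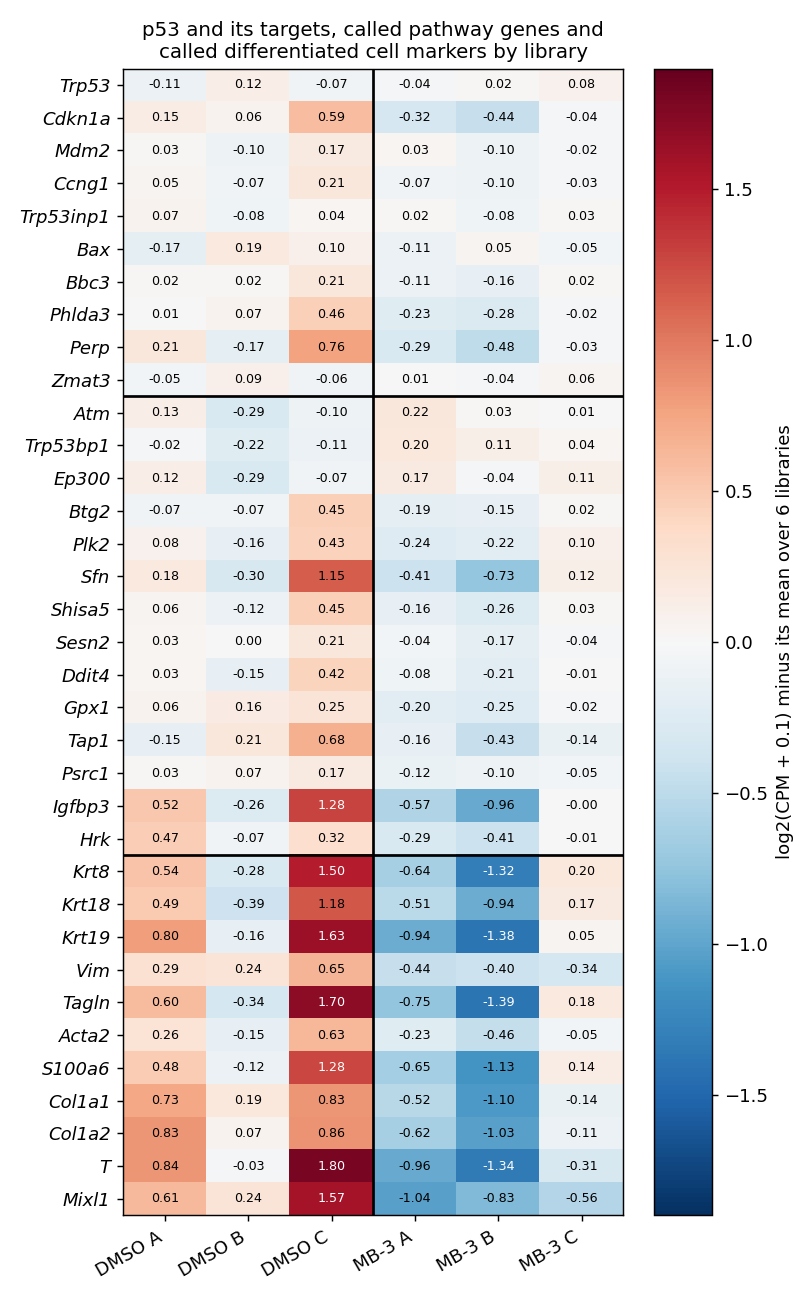
Deviation of log2(CPM + 0.1) from its mean over the 6 libraries, in columns by library, for p53 and its targets (top), the 14 pathway genes (middle) and the 11 markers of differentiated cells (bottom) called with the replicate block; numbers and colour give the same value. DMSO replicate C holds the highest values of Cdkn1a (0.59), Perp (0.76), Sfn (1.15) and Krt8 (1.498), while Trp53 stays within 0.123 of its mean in every library.

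The rest of the p53 pathway was described through 8 lists set by role, 108 genes in all, of which 104 were tested. With treatment as the only term 0 of the 104 were called by edgeR, with 10 at an unadjusted p under 0.05, where 0.205% of all genes were called and 10.9% had an unadjusted p under 0.05. On the same filtered genes limma-voom called 0. DESeq2, run without the filter on low counts, called 1 pathway gene, Gpx1, which edgeR without that filter also called. With the replicate block 14 were called, 3 higher and 11 lower, which is 13.5% of those tested where 7.12% of all genes were called.

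Regulators that act on p53 were the list with the highest median, 0.10 on the log2 scale, with 17 of 22 tested genes above 0, against 49.7% of all genes, and 0 called with treatment only. With the replicate block 3 were called higher, where 3.22% of all genes were. Trp53bp1, which encodes the DNA damage mediator 53BP1, went from 83.7 ± 5.93 to 98.3 ± 5.28 CPM (SD, n = 3), with all MB-3 libraries above all DMSO libraries and a log2 fold change of 0.23 (SE 0.05, adjusted p = 0.0017 in edgeR with the block, Benjamini-Hochberg), though its exons share 2130 of 14164 bases with a gene on the opposite strand. The damage kinase gene Atm (log2 fold change 0.17 with the block) and the acetyltransferase gene Ep300 (0.16 with the block) were called at adjusted p of 0.032 and 0.034, tested likewise. With the block and letter B left out, none of these 3 was called, while Crebbp and Sirt1 of this list were. With letter C left out, Ep300 was not called. Usp7, a deubiquitinase of p53 and Mdm2, and Mdm4, an inhibitor of p53 and partner of Mdm2, were the most abundant regulators, and their log2 fold changes of 0.09 and 0.03 did not pass. The p53 paralog Trp73 averaged 4.18 ± 0.233 and 4.88 ± 0.453 CPM under DMSO and MB-3, a log2 fold change of 0.22 that did not pass, and Trp63 did not pass the filter on low counts.

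Other targets of cell cycle arrest had a median log2 fold change of -0.03 over 9 genes, of which 3 were called lower with the replicate block, against 3.9% of all genes. Sfn, which encodes the arrest protein 14-3-3 sigma and is also typical of epithelia, was at 41.6, 29.7 and 81.6 CPM in DMSO and at 27.6, 22.1 and 39.8 CPM in MB-3, a log2 fold change of -0.70 with the block (adjusted p = 2.5e-08, Benjamini-Hochberg in edgeR). Its replicate C was the highest in both groups. The stress-induced kinase gene Plk2 and the antiproliferative gene Btg2 had log2 fold changes of -0.24 and -0.21 with the block (adjusted p = 0.0086 and 0.044, the same test). With the block and letter C left out, Sfn was called and Plk2 and Btg2 were not. Plk2 was also not called with letter A left out. Gtse1 and Cdkn1b, which encodes the related inhibitor p27, were the most abundant of the list and differed by -0.03 and -0.02. The little expressed Rprm, at 2.45 ± 0.618 and 1.96 ± 0.0468 CPM (SD, n = 3), had a log2 fold change of -0.33 that did not pass.

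Other targets of apoptosis had a median log2 fold change of 0.0025 over 12 tested genes, with 6 above and 6 below 0. With the replicate block 1 was called, where 7.12% of all genes were, namely Shisa5, an apoptosis gene of the endoplasmic reticulum, at -0.27 (adjusted p = 0.028, Benjamini-Hochberg in edgeR). Shisa5 was not called with the block and letter A or letter C left out. Pmaip1, which encodes the killer protein Noxa, averaged 14.5 ± 0.456 and 13.04 ± 0.897 CPM under DMSO and MB-3, with groups that did not overlap, and did not pass (adjusted p = 0.241 with the block, the same test). The nuclease gene Aen and Ei24 were the most abundant of this list, and differed by -0.02 and 0.03. In the further Bcl2 family, 1 of 12 genes was called with the block, near the 7.12% of all genes, namely Hrk, which encodes a killer protein of the PUMA kind, and which went from 10.3 ± 1.92 to 7.33 ± 1.08 CPM (log2 fold change -0.49, adjusted p = 0.00067, Benjamini-Hochberg in edgeR). Hrk was not called with the block and letter A left out. The survival gene Mcl1, the most abundant member at 579 ± 44.4 and 631 ± 23.2 CPM, had a log2 fold change of 0.12, and Bak1, the partner of Bax in pore formation, one of -0.10, and neither passed. Bik, at 1.47 ± 0.543 and 1.85 ± 0.304 CPM, had a log2 fold change of 0.32 that did not pass either.

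Repair targets had 0 of 9 genes called in either test. Of all genes, 0.205% were called with treatment only and 7.12% with the block, so 0 of 9 is near these shares. Of the 9 genes, 1 had an unadjusted p under 0.05 with the block, against 20.1% of all genes, and their median log2 fold change was -0.03. The replication clamp gene Pcna was the most abundant, at 401 ± 23.9 CPM in DMSO, and differed by -0.05. The largest changes were in Rrm2b, a subunit of ribonucleotide reductase, at 0.21, and in the translesion polymerase gene Polh, at 0.10, neither called. Genes that p53 represses through p21 and the DREAM complex were likewise called in 0 of 10 cases in either test. That count too is near the 0.205% and 7.12% of all genes called. With the block 3 of the 10 had an unadjusted p under 0.05, against the same 20.1%. All 10 are genes of the cell cycle, and their log2 fold changes ran from -0.13 in Aurka to 0.03, with Mki67, the most abundant, at 303 ± 33.99 and 304 ± 15.99 CPM under DMSO and MB-3. Ccnb2 and Ccnb1, which encode mitotic cyclins, differed by -0.10 and -0.05.

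Targets in metabolism and autophagy lay below 0 in 11 of 12 tested genes, where 49.7% of all genes lay above 0, with a median of -0.06, and 3 were called lower with the replicate block, against 3.9% of all genes. Gpx1, a glutathione peroxidase that removes peroxides, was at 81.7, 87.5 and 92.8 CPM in DMSO and at 68.1, 66.0 and 77.0 CPM in MB-3, without overlap. Its log2 fold change was -0.31 with an adjusted p of 0.106 with treatment only and 3.8e-05 with the block (Benjamini-Hochberg in edgeR). The stress sensor gene Sesn2 (-0.16 with the block) and Ddit4, an inhibitor of mTOR signalling (-0.20 with the block), were called at adjusted p of 0.020 and 0.041, tested likewise. With the block and letter C left out, Gpx1 was called and Sesn2 and Ddit4 were not. Sesn2 was also not called with letter B left out. The autophagy kinase gene Ulk1 differed by -0.04, and Dram1, at 0.321 ± 0.0811 and 0.166 ± 0.188 CPM, was too low to read its log2 fold change of -0.88.

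Further genes often listed as targets had 3 of 18 called with the block, all lower, where 3.9% of all genes were called lower. Igfbp3, which encodes a secreted binding protein of insulin-like growth factors, had the largest change of all the pathway lists. It was at 61.8, 36.0 and 105 CPM in DMSO and at 29.0, 22.2 and 43.1 CPM in MB-3, with replicate C highest and replicate B lowest in both groups, and its log2 fold change with the block was -1.04 (SE 0.07, adjusted p = 1.4e-12, Benjamini-Hochberg in edgeR). Psrc1, a gene of the mitotic spindle, was at 184 ± 9.29 and 162 ± 4.10 CPM (SD, n = 3) without overlap between the groups, a log2 fold change of -0.18 (adjusted p = 0.0074 with the block). Tap1, the peptide transporter of antigen presentation, changed by -0.51 with the block (adjusted p = 0.026), and its exons share 212 of 5476 bases with a gene on the opposite strand. Tap1 was not called with the block and letter B or letter C left out. The abundant Sulf2 differed by 0.06 and was not called.

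**Figure D4:**
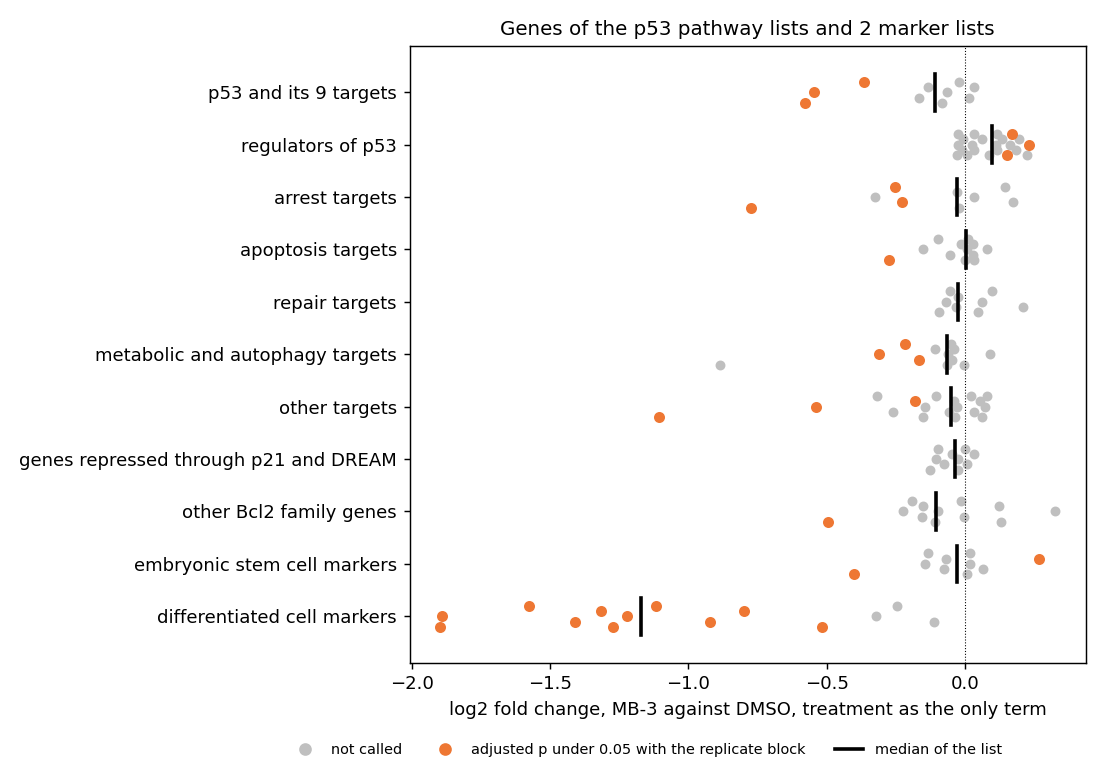
Log2 fold change of MB-3 against DMSO with treatment as the only term, 1 point per tested gene, for p53 and its 9 targets, 8 lists of the p53 pathway and 2 marker lists; orange points have an adjusted p under 0.05 with the replicate block, and black bars are list medians. Medians of the pathway lists lie between -0.10 and 0.10, and that of the differentiated cell markers at -1.17.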

How the data were processed

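RNA-seq libraries from 3 DMSO-treated and 3 MB-3-treated cultures were analysed. The values are raw counts of reads per Ensembl gene, as deposited. Per the study's methods, the authors used Bowtie for alignment to mm10 after trimming, then GenomicAlignments for counting over exons. Versions, annotation release and use of strand are not given in the sources used here. Symbols, coordinates and exon lengths were taken from GENCODE M21 (30540 of 30677 identifiers matched). H3K9ac peak positions, on mm9, were not used here.

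Genes were kept by filterByExpr, library sizes were scaled by TMM, and MB-3 was compared with DMSO in edgeR 4.0.16 (R 4.3.3) with glmQLFit and glmQLFTest, treatment being the only term. Benjamini-Hochberg adjustment ran over 20027 genes, with a threshold of 0.05. CPM is the count relative to the scaled library size (TMM factor times the summed counts of the genes tested), where 1 CPM rests on 42.9 to 50.2 counts. Intervals and p-values measure the spread between cultures, where edgeR draws the spread of each gene toward that shared across genes. In the fits with the block few libraries are left to estimate a gene's own spread, so their p-values rest largely on the shared one. With 1 letter left out as well, this holds even more. An exact permutation test of 3 against 3 libraries cannot give a p-value under 0.10, and one that keeps the letter pairs has a higher limit still. Replicates of a group differed by a chi-square of 8.50 or more per gene, so within a group no library was a copy of another.

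The labels do not say what a replicate letter marks. Deviations from the group mean correlated across genes by 0.12, 0.29 and 0.23 between libraries of the same letter (A, B and C) and by -0.23 to -0.02 between different letters. Deviations cancel within a group, so negative values between letters follow from positive ones within letters and are no separate evidence. By the limit of 0.1 in every pair, which letter A passed narrowly, the letters were taken as pairs, and the fit with the letter as a block stands beside the fit without it. Alternatives were other normalizations and filters, DESeq2 1.42.0, limma-voom (limma 3.58.1), edgeR's robust option and each library left out. DESeq2 was run without the filter, on all 30677 genes, and adjusted its p-values after its own default filter on mean counts. Fits with the block and 1 letter left out, and the search for full p53 sites, were added after the data were seen.

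The genes and lists were chosen with earlier results of these data known. Named in the text are the 10 genes and, of each pathway list, the genes called in either fit, the 2 with the largest change and the 2 most abundant. Of ES cell markers the called genes and the most abundant one are named, and of differentiated cell markers all. Of the genes the rule names, 1 is left out and not reported here. Lists are described by counts and medians and not tested as sets. Plots were drawn with matplotlib 3.10.9 in Python 3.11.15.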

Additional observations from a re-analysis of the deposited data

How the results depend on the processing

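Of all genes tested, 41 were called by edgeR with treatment as the only term, 1425 with the replicate block, 25 with upper quartile normalization, 24 with total counts only, 24 with a filter of at least 1 CPM in 3 libraries, 194 with no filter, 185 by DESeq2 (with only its own filter at adjustment), 18 by limma-voom and 66 with the robust option. Leaving out each library in turn gave 0 to 520 calls, with 0 without MB-3 replicate A or B (1440 and 1716 genes at an unadjusted p under 0.05) and 520 without DMSO replicate B. Of p53 and its 9 targets, the replicate block called 3, no filter 1 (Cdkn1a), and the fits with a library left out 0 to 3. Of the pathway lists, the replicate block called 14, no filter 2 (Gpx1 and Igfbp3), DESeq2 1 (Gpx1) and the fits with a library left out 0 to 4 (Gpx1, Hrk, Igfbp3 and Sfn without DMSO replicate B). The cause of these differences was not tested. Paired fits with letter A, B or C left out called 939, 912 and 1037 genes in all, the same 3 of the 10 genes each time (Cdkn1a, Phlda3 and Perp), and 12, 11 and 9 pathway genes. With so few libraries, the p-values of these fits rest on spread shared across genes more than on each gene's own. Of the 14 pathway genes called with all letters, only Gpx1, Igfbp3, Psrc1 and Sfn were called in each of these fits. Genes not among the 14 were called too, namely Dram1 without letter A, Crebbp and Sirt1 without B, and Aurka and Ccnb2 without C. The median log2 fold change of the 10 genes was -0.11, and -0.16 to -0.056 with each library left out. The small changes of 4 genes did not keep their sign with a library left out. They ran from -0.012 to 0.11 in Trp53, -0.13 to 0.0075 in Mdm2, -0.064 to 0.012 in Trp53inp1 and -0.013 to 0.066 in Zmat3, and with the block and 1 letter left out they reached -0.020 in Trp53, 0.0016 in Mdm2, and -0.0093 and -0.036 in Zmat3. Cdkn1a, Ccng1, Bax, Bbc3, Phlda3 and Perp were lower in MB-3 in all 18 alternatives. Cdkn1a passed the threshold in 6 of them, Phlda3 and Perp in 5 each, and the other genes in none. At 3 libraries per group the median standard error over the 10 genes was 0.07 on the log2 scale, which limits what smaller differences can show.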
